A study of Homo sapiens with 8 samples.

Results

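Globins are the protein chains of haemoglobin, and this account follows the 10 genes HBB, HBD, HBE1, HBZ, HBG1, HBG2, HBA1, HBA2, HBM and AHSP. Their members on the array were all probe sets whose platform annotation lists one of these symbols, alone or with other globin symbols, which gave 19 of the 54613 probe sets tested. Of these, 10 list a single gene, while 6 list HBA1 and HBA2 together and 3 list HBG1 and HBG2 together, so those genes are given as shared signals. RNA came from K562 cells, an established human line from chronic myeloid leukaemia with erythroid traits, which stably expressed p42-C/EBPα-ER in both groups. This is a fusion of the transcription factor C/EBPα with the oestrogen receptor, which estradiol is used to bring into the nucleus, and its place in the cell was not measured here. The 4 estradiol arrays came from cells given 1 µM estradiol for 6 h and the 4 vehicle arrays from cells given ethanol for the same time, and the sample titles call each a biological replicate. The labels name no cells without the fusion and do not say whether the stable line is a single clone or how the cultures were separated, so p-values measure only the spread between these samples.

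Haemoglobin joins a pair of alpha-like chains to a pair of beta-like chains. The alpha-like genes stand on chromosome 16 and the beta-like genes on chromosome 11, and in each cluster genes used early in development give way to others later on. HBE1 encodes the embryonic epsilon chain, HBG1 and HBG2 the fetal gamma chains, HBB the adult beta chain and HBD the minor adult delta chain. HBZ encodes the embryonic zeta chain, HBA1 and HBA2 the identical alpha chains, and HBM the little-studied mu chain. AHSP is a chaperone that binds free alpha chains in red cell precursors. K562 cells are known for making embryonic and fetal globins.

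The comparison of estradiol with vehicle asked how these transcripts stood 6 h after estradiol was given to cells that carry the fusion. All 19 probe sets had small differences. HBE1 fell 1.13-fold (a log2 fold change of −0.17) on 1 of 2 probe sets, and this was the single member called. HBD, HBA1/HBA2 and HBG1/HBG2 had differences of −0.16 to −0.05 that were not called, and HBB, HBZ, HBM and the chaperone AHSP were not called either. With estradiol 1 of the 19 probe sets was called lower and 0 higher (limma, Benjamini-Hochberg adjusted p below 0.05), where 5.06% of all probe sets were called lower and 5.32% higher, or 10.4% in either direction. At an unadjusted p under 0.05 there were 2 members, HBE1 and HBD. The difference was negative in 17 of 19 members and in 57.3% of all probe sets (48.8% with median centring), with a median of −0.08 against −0.02 over all probe sets. In 10 members every estradiol array lay below every vehicle array, where this held for 8.87% of all probe sets, and 0 members lay the other way round, where 8.65% of all did. No 95% interval of a member reached beyond 1.37-fold lower or 1.20-fold higher in estradiol. The members share arrays and, in part, target sequences, so these counts are not counts of independent results.

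**Figure D1:**
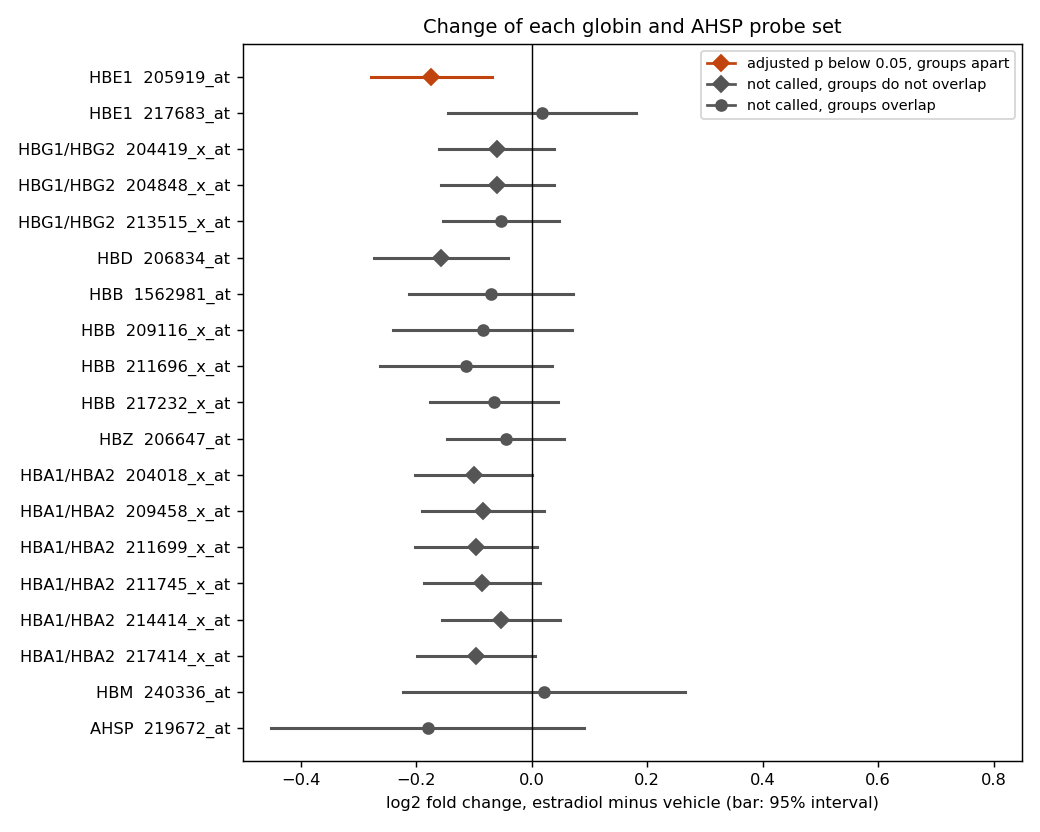
Log2 fold change, estradiol minus vehicle, of each of the 19 globin and AHSP probe sets, with its 95% interval from limma (4 arrays per group). HBE1 205919_at, at −0.17, is the single called probe set; diamonds mark the 10 probe sets whose groups do not overlap, and 17 of 19 points lie left of 0.

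With 4 arrays a group, the number of arrays limits the precision. Levels are log2 expression values from RMA, a method that gives arrays nearly the same distribution. Array medians were 4.96 to 5.07 with estradiol and 5.02 to 5.08 with vehicle. The bright globin signals lay close to the top of that distribution. The highest value on any array was 14.39, and the gamma probe sets 204848_x_at and 204419_x_at stood on average 0.10 and 0.11 below the top of their array with estradiol, against 0.04 and 0.04 with vehicle. Whether bright signals were compressed was not tested. Among 246 probe sets with a mean above 13, a limit set after the values had been seen, 95% changed by less than 0.10 in either direction, against 0.40 over all probe sets. Of these 246, 27 had groups that did not overlap and were lower with estradiol, among them 9 of the 11 bright members. The erythroid markers HEMGN, TFRC, RHAG and EPOR had mean levels of 8.77, 13.08, 12.11 and 8.40 with estradiol, with differences of −1.61, 0.08, −0.16 and −0.15 from vehicle, of which that of HEMGN was called. These are the probe sets with the highest mean, and RHAG was called lower on 2 of its 3 probe sets and EPOR on 3 of its 5. Of 12 measured markers of lymphocytes, monocytes and fibroblasts 0 were called, at mean levels from 3.66 to 7.99. Of 3 epithelial markers, the keratin gene KRT19 was 7.43 with estradiol and 8.48 with vehicle (limma adjusted p = 2.03e-06). It was called lower on 1 of its 2 probe sets. EPCAM was 10.81 with estradiol and 10.98 with vehicle (adjusted p = 0.116). CDH1 was 3.26 with estradiol and 3.42 with vehicle (adjusted p = 0.314). The part of these markers in any result was not tested. The 3′ minus 5′ difference of the GAPDH control was −0.009 to 0.007 with estradiol and 0.003 to 0.014 with vehicle. That of the ACTB control was larger, at 0.44 to 0.51 with estradiol and 0.45 to 0.51 with vehicle.

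**Figure D2:**
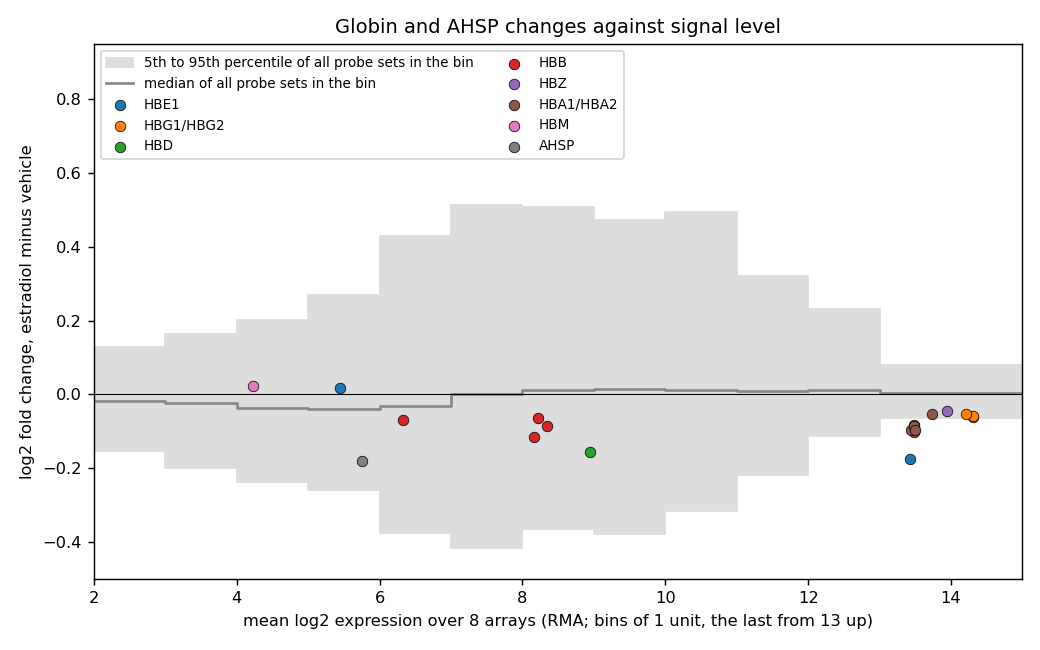
Log2 fold change, estradiol minus vehicle, of the 19 member probe sets against their mean log2 level over 8 arrays. The grey band holds the central 90% of the 54613 probe sets in each bin of 1 log2 unit (the last from 13 up) and narrows towards the bright end, where HBE1 205919_at and 5 of the 6 HBA1/HBA2 probe sets lie below it.

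HBE1, the embryonic member of the beta cluster, was measured by a bright and a dim probe set. On 205919_at the log2 level was 13.34, 13.30, 13.37 and 13.34 on the 4 estradiol arrays, against 13.46, 13.52, 13.53 and 13.54 on the 4 vehicle arrays. All estradiol arrays were lower than all vehicle arrays, and the gap between the groups was wider than the spread within either. The means were 13.34 ± 0.03 and 13.51 ± 0.03 (SD, n = 4 each), a log2 fold change of −0.17 ± 0.05 (SE, limma adjusted p = 0.0431, 95% interval −0.28 to −0.07). The exact two-sided permutation test over the 70 assignments of arrays gave p = 0.0286, the smallest it can give. This call was a narrow one. It did not hold when any 1 of 7 arrays was left out, which were all 4 estradiol arrays and vehicle replicates 2, 3 and 4 (adjusted p = 0.0560 to 0.126), and it was lost with median or 75th percentile centring of the arrays (adjusted p = 0.179 and 0.0691), while the difference stayed negative in all 17 alternatives. The dim probe set 217683_at read 5.46, 5.34, 5.55 and 5.48 with estradiol against 5.52, 5.50, 5.26 and 5.47 with vehicle. Its groups overlapped, and its difference was 0.02 ± 0.07 (SE, limma adjusted p = 0.933). Its level was not far above the array medians of 4.96 to 5.08 and was not shown to be above background. The 2 probe sets thus differed, the dim one is a weak second reading of HBE1, and the call rests on 205919_at alone. With the mean of both, which gives the dim probe set equal weight, the difference was −0.08 (limma adjusted p = 0.351).

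The fetal gamma genes HBG1 and HBG2, which encode almost identical chains, share 3 probe sets. On 204848_x_at the level was 14.29, 14.28, 14.26 and 14.29 with estradiol against 14.33, 14.35, 14.34 and 14.33 with vehicle. On 204419_x_at it was 14.27, 14.27, 14.27 and 14.28 with estradiol against 14.34, 14.31, 14.37 and 14.32 with vehicle. The groups did not overlap on these 2 probe sets, although they were only about 0.06 apart. The third, 213515_x_at, ran from 14.16 to 14.21 with estradiol and from 14.21 to 14.26 with vehicle and overlapped slightly. The log2 fold changes were −0.06, −0.06 and −0.05, which is 3.60% to 4.11% less signal, and none was called (limma adjusted p = 0.513 to 0.586). At the adjusted threshold the smallest difference that would have been called on these probe sets was 0.16. The 95% intervals of the 3 ran from −0.16 to 0.05, and smaller changes were not detectable by this test.

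HBD, the delta gene, stood at 8.90, 8.77, 8.90 and 8.87 with estradiol against 8.98, 9.01, 9.03 and 9.06 with vehicle. Every estradiol array was again below every vehicle array. The means were 8.86 ± 0.06 and 9.02 ± 0.03 (SD, n = 4 each), a difference of −0.16 ± 0.05 (SE, limma adjusted p = 0.0992, 95% interval −0.27 to −0.04). HBD passed the threshold when dim probe sets were left out (adjusted p = 0.0266), when 1 probe set stood for each gene (adjusted p = 0.0436) or the mean of its probe sets did (adjusted p = 0.0433), with array weights (adjusted p = 0.0370) and after quantile normalization (adjusted p = 0.0480). It did not pass with median or 75th percentile centring (adjusted p = 0.306 and 0.136) or with the replicate number as a block (adjusted p = 0.208). With any 1 of the 8 arrays left out it was not called (adjusted p = 0.107 to 0.245).

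HBB, the adult beta gene, had 4 probe sets, all with overlapping groups. Its 3 probe sets 209116_x_at, 211696_x_at and 217232_x_at carry the suffix _x_at. The array maker gives it to probe sets whose probes can match other sequences too. Related globin transcripts were bright in these cells, so HBB and related transcripts cannot be told apart on these probe sets. All probe sets of HBA1/HBA2 and HBG1/HBG2 carry the same suffix, so their signals may also hold other transcripts. On 211696_x_at the level was 8.11, 7.96, 8.13 and 8.21 with estradiol against 8.20, 8.15, 8.32 and 8.19 with vehicle. The lowest array was an estradiol array and the highest a vehicle array, with the others mixed. The 4 differences ran from −0.11 to −0.06 (limma adjusted p = 0.388 to 0.610). Probe set 1562981_at was dimmer, at 6.29 ± 0.07 with estradiol and 6.36 ± 0.09 with vehicle (SD, n = 4 each). Its difference of −0.07 ± 0.06 (SE) was within the spread between arrays. The 95% intervals of the 4 HBB probe sets lay between −0.26 and 0.07.

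**Figure D3:**
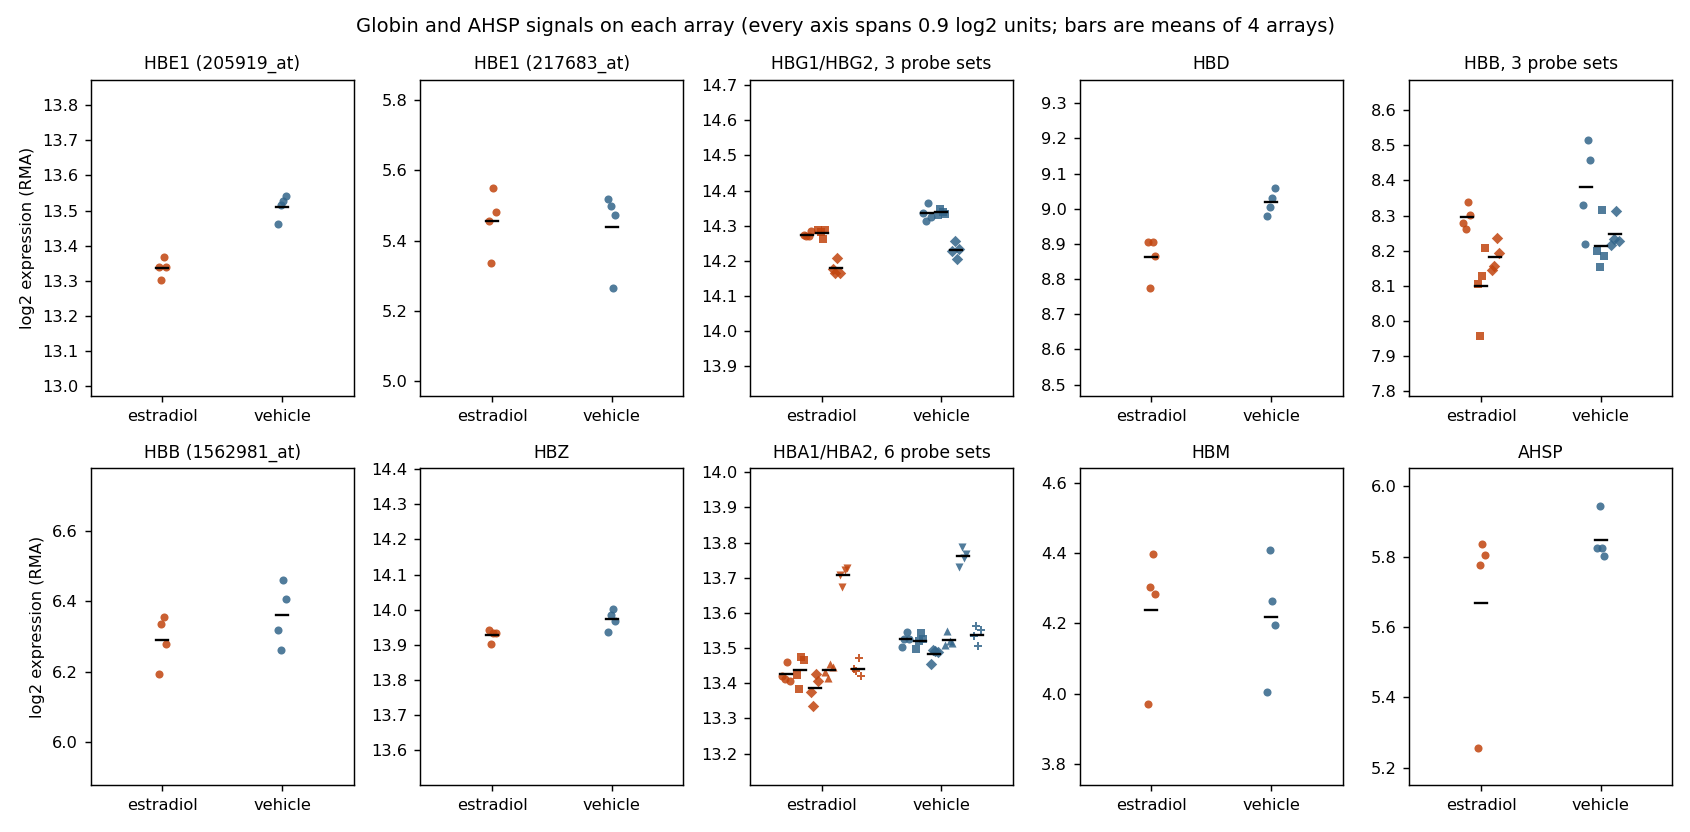
Log2 level on each of the 8 arrays for the member probe sets, estradiol left of vehicle in each panel, with a bar at the mean of 4 arrays and one symbol shape per probe set. Each axis spans 0.9 log2 units; the groups separate for HBE1 205919_at, HBD and the 6 HBA1/HBA2 probe sets and overlap for HBB, HBM and AHSP, where estradiol replicate 1 lies at 5.26.

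Promoter sequence was available from RefSeq (GRCh38.p14) for 2 of the 10 symbols, HBD and HBM. Both are shown for that reason. HBD was among the members with separate groups, while HBM was not. Each line gives the 250 bases before the transcription start, 5′ to 3′ on the gene's strand, chr11:5234484-5234733 (minus strand) for HBD and chr16:165728-165977 (plus strand) for HBM. Capitals mark matches, on either strand, to GATAA (a core motif of the factor GATA1), CACCC (a core motif of KLF1), CCAAT, the box of that name, ATAAA (like a TATA box) or TTGCNNAA (most of a C/EBP motif).
HBD: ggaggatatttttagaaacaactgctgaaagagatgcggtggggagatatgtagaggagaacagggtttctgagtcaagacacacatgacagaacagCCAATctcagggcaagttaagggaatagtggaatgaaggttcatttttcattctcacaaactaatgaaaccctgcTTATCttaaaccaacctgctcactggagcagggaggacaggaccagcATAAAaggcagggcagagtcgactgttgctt
HBM: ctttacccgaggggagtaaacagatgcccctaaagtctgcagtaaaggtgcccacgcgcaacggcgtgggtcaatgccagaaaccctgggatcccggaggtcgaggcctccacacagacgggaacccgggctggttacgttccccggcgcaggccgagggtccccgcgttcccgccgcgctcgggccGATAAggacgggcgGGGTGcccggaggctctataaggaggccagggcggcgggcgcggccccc
Both windows held 1 GATAA match, starting 78 bases before the start site in HBD, on the reverse strand, and 63 bases before it in HBM. HBD also held CCAAT and ATAAA, 153 and 31 bases before the start, and HBM held CACCC on the reverse strand 49 bases before it. Among all 35116 promoters in the table, GATAA was found in 20.4%, CACCC in 54.7%, CCAAT in 32.0%, ATAAA in 32.7% and TTGCNNAA in 9.05% of the same windows. TTGCNNAA was in neither of these 2 windows, and a match or its absence here says nothing about binding. The bases were 45.2% G or C in HBD and 69.2% in HBM.

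In the alpha cluster HBZ, the embryonic zeta gene, stood at 13.94, 13.90, 13.93 and 13.93 with estradiol against 13.94, 13.98, 14.00 and 13.97 with vehicle. Vehicle replicate 1 lay among the estradiol arrays, so the groups overlapped. The difference was −0.04 ± 0.05 (SE, limma adjusted p = 0.661), with a 95% interval of −0.15 to 0.06.

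HBA1 and HBA2 share 6 probe sets, and on all 6 the groups did not overlap. On 204018_x_at the level was 13.42, 13.41, 13.46 and 13.41 with estradiol against 13.50, 13.53, 13.54 and 13.53 with vehicle. On 214414_x_at it was 13.71, 13.67, 13.72 and 13.73 with estradiol against 13.73, 13.79, 13.76 and 13.77 with vehicle. The groups were clearly apart on the first, while on the other the highest estradiol array and the lowest vehicle array (13.727 and 13.730) nearly met. Over the 6 probe sets the differences ran from −0.10 to −0.05, which is 3.61% to 6.74% less signal. None was called in the test with a common prior variance (limma adjusted p = 0.235 to 0.588).

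Another variance model gave more calls among the bright globins. Within-group SDs were 0.02 to 0.04 for the alpha signals and 0.01 to 0.02 for the gamma signals, and the median within-group SD was 0.02 above a level of 13 and 0.12 over all probe sets. When the prior variance was allowed to follow the signal level and a robust fit was used at the same time, 11 of 19 members were called lower and 0 higher, where 6.8% of all probe sets were called lower and 7.57% higher. These 11 were all 6 alpha probe sets (adjusted p = 1.92e-04 to 0.0350), all 3 gamma probe sets (adjusted p = 0.00159 to 0.0174), HBD (adjusted p = 0.0155) and HBE1 205919_at (adjusted p = 2.59e-06). The 2 options were not run apart. The sizes of these 11 were the same in both fits, at most 1.13-fold. With each array centred on its median, the groups of 2 members did not overlap and were lower, HBE1 205919_at and 211699_x_at of HBA1/HBA2, where this held for 6.29% of all probe sets. With the 75th percentile it was again 2, HBE1 205919_at and 217414_x_at of HBA1/HBA2, against 9.88% of all, and in the values as deposited it was 10. After quantile normalization it was 7, for which the share over all probe sets was not computed.

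The signals were also set against each other within each array. The log2 level of HBE1 205919_at minus the mean of the 3 gamma probe sets ran from −0.94 to −0.88 with estradiol and from −0.84 to −0.76 with vehicle. These groups did not overlap, and the mean difference was −0.12. The mean of the 6 alpha probe sets minus HBZ differed by −0.04 and minus the gamma mean by −0.03, both with overlapping groups. These differences were not tested, and their absolute sizes have no meaning because the probe sets differ.

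HBM, the mu gene, had a dim signal, with 3.97, 4.30, 4.40 and 4.28 with estradiol against 4.00, 4.41, 4.26 and 4.19 with vehicle. The lowest array of each group was its replicate 1, and the groups overlapped. The signal lay below the array median on every array and was not shown to be above background (difference 0.02 ± 0.11 SE, limma adjusted p = 0.945).

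AHSP, the alpha chain chaperone, stood at 5.26, 5.78, 5.84 and 5.80 with estradiol against 5.82, 5.94, 5.82 and 5.80 with vehicle. One estradiol array was far below the rest, and the other 3 lay at or near the lower vehicle values. The difference was −0.18 ± 0.12 (SE, limma adjusted p = 0.467), and without estradiol replicate 1 it was −0.04 (adjusted p = 0.772). With a 95% interval of −0.45 to 0.09, AHSP was the least precisely measured of the members.

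Other transcripts of the clusters were measured beside the members. HBQ1, the theta gene at the end of the alpha cluster, had a level of 9.23 ± 0.05 with estradiol and 9.46 ± 0.04 with vehicle (SD, n = 4 each), a fall of 1.17-fold (limma adjusted p = 0.0157). This call was lost with median centring (adjusted p = 0.0588) and without estradiol replicate 2 (adjusted p = 0.0523). BGLT3, a long non-coding RNA that RefSeq (GRCh38.p14) places between the pseudogene HBBP1 and HBG1 and that is known to aid gamma globin transcription, also fell. It and its neighbour HBBP1 were chosen after their values had been seen. Its single probe set read 5.23, 5.43, 5.17 and 5.37 with estradiol against 6.25, 5.84, 6.23 and 6.27 with vehicle. The groups were well apart, even though vehicle replicate 2 was lower than the other vehicle arrays. The difference was −0.85 ± 0.10 (SE, adjusted p = 6.14e-04), or 1.80-fold lower in estradiol, and it was called in all 17 alternatives (−0.95 to −0.80). HBBP1, next to it, stood at 6.49 ± 0.05 with estradiol and 6.48 ± 0.11 with vehicle (SD, n = 4 each; adjusted p = 0.940). Of the 8 nearest measured genes that flank both clusters, 0 were called (differences of −0.14 to 0.06), where 10.4% of all probe sets were. Among them was NPRL3, whose introns hold enhancers of the alpha genes. Those beside the beta cluster were OR52A1, OR51A1P, OR51B4 and OR51B2. Their mean levels were only 3.67 to 5.31 and were not shown to be above background, so their lack of a call says little.

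**Figure D4:**
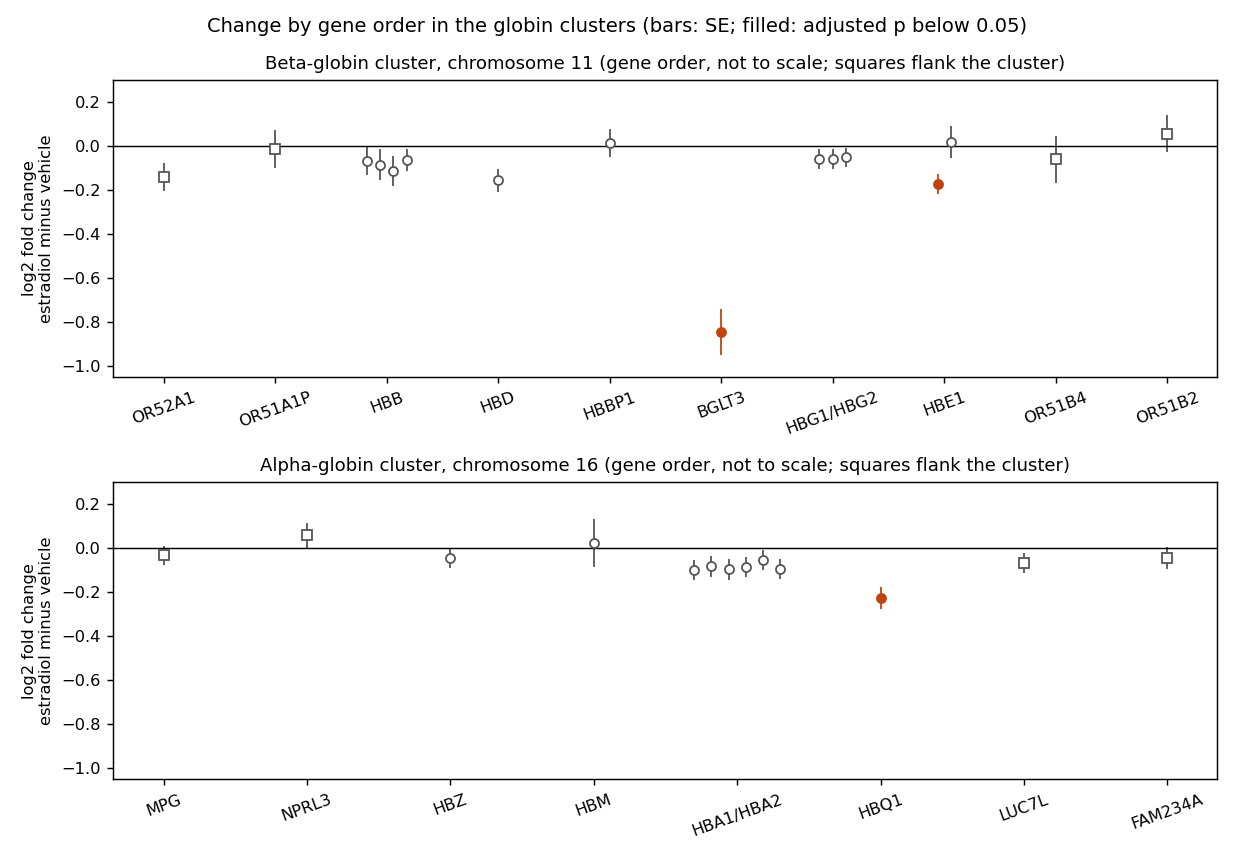
Log2 fold change ± SE, estradiol minus vehicle, along the gene order of the beta-like and alpha-like clusters, with flanking genes as squares and one point per member probe set. BGLT3 at −0.85 stands apart from its neighbours, while the globins lie between −0.23 for HBQ1 and 0.02.

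Several genes that control globin transcription had larger differences than any globin. Of 13 measured activators 6 fell, 3 rose and 4 were not called. Over all probe sets 5.06% were called lower and 5.32% higher. In a separate fit with 1 probe set per gene and its own adjustment, 1899 of 19777 features fell and 1639 rose. The list counts given here and below are from the main fit. In the separate fit 6 activators, 5 repressors of fetal globin, 8 haem synthesis genes and 5 haem breakdown genes fell. In the same order, 3, 2, 1 and 2 rose there. Whether the counts of this list or those below differ from these shares was not tested. The erythroid master regulator GATA1 had levels of 9.02 ± 0.03 with estradiol and 9.92 ± 0.01 with vehicle (SD, n = 4 each), 1.86-fold lower (limma adjusted p = 2.07e-06). KLF1, which activates adult beta globin, was 9.35 ± 0.03 with estradiol and 10.07 ± 0.01 with vehicle, 1.64-fold lower. NFE2, which acts at the distant enhancers of the clusters, rose 1.82-fold, and KLF2, which supports embryonic globin expression in mice, rose 2.33-fold on 1 of its 2 probe sets, which is 1.22 in log2 against 0.58 for their mean (adjusted p = 0.00207). The list had a median of −0.12, against −0.02 over all probe sets.

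Among 15 measured repressors of fetal globin 3 fell, 2 rose and 10 were not called, with a median of −0.06. The number that fell ran from 2 to 5 over the alternatives. The number that rose was 1 with median centring or with the replicate number as a block. It was also 1 with estradiol replicate 1 or 2 or vehicle replicate 3 or 4 left out. With the variance trend and robust fit it was 5. GFI1B, a zinc finger repressor of blood cells, fell 2.99-fold and the histone methyltransferase EHMT2 fell 1.22-fold. IKZF1, a zinc finger factor of lymphoid and other blood cells, fell 1.50-fold, with 4 of its 9 probe sets called lower, and its log2 change was −0.59 against −0.28 for their mean (adjusted p = 0.00233). MYB, a factor of dividing progenitors, rose 1.60-fold. The main silencers of the gamma genes were not called. BCL11A stood at 5.59 ± 0.20 with estradiol and 5.71 ± 0.24 with vehicle (SD, n = 4 each; limma adjusted p = 0.694). ZBTB7A stood at 8.21 ± 0.12 with estradiol and 8.01 ± 0.07 with vehicle (adjusted p = 0.126). EHMT2 was no longer called with median centring, nor with estradiol replicate 3, estradiol replicate 4, vehicle replicate 1 or vehicle replicate 4 left out (adjusted p = 0.0570 to 0.0832).

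**Figure D5:**
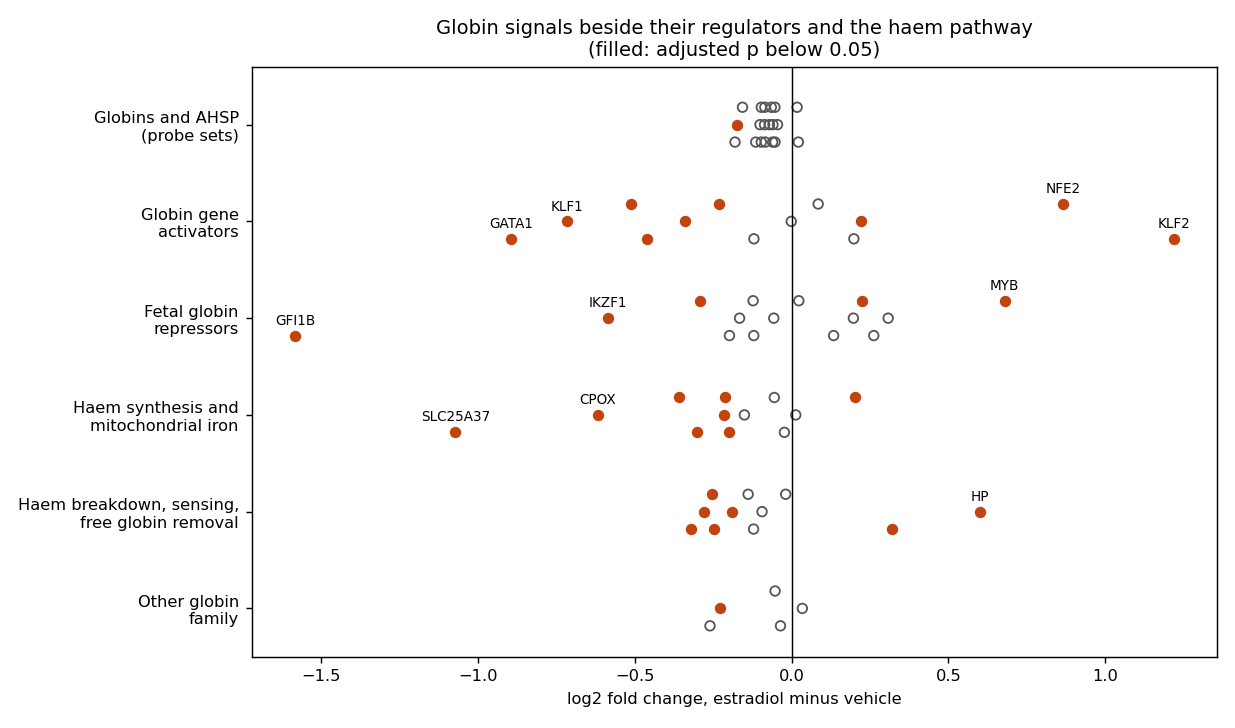
Log2 fold change, estradiol minus vehicle, of the 19 member probe sets and of the genes in 5 lists, filled where the adjusted p was below 0.05. The 19 member probe sets lie between −0.18 and 0.02, while the regulators run from −1.58 for GFI1B to 1.22 for KLF2.

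Haem, the iron-bearing group that each globin chain holds, is made by a pathway of enzymes in mitochondria and cytosol. Of 12 measured genes of haem synthesis and mitochondrial iron 7 fell, 1 rose and 4 were not called, with a median of −0.20. The number that fell was 4 with median centring, with the replicate number as a block, without estradiol replicate 4 or without vehicle replicate 4. The number that rose was 0 with either centring, quantile normalization, the block or any 1 of the 8 arrays left out. The iron importer SLC25A37 fell 2.10-fold, the coproporphyrinogen oxidase CPOX 1.54-fold, the mitochondrial transporter ABCB10 1.28-fold and the protoporphyrinogen oxidase PPOX 1.23-fold (limma adjusted p = 1.10e-05 to 0.00459). ALAS2, the erythroid enzyme of the first step, was not called at 8.31 ± 0.05 with estradiol and 8.33 ± 0.03 with vehicle (SD, n = 4 each; limma adjusted p = 0.859).

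Of 11 measured genes of haem breakdown, haem sensing and free globin removal 5 fell, 2 rose and 4 were not called, with a median of −0.14. The number that fell was 2 without estradiol replicate 2 or vehicle replicate 3, and 3 with median centring, with estradiol replicate 1, 3 or 4 left out or with vehicle replicate 4 left out. The number that rose was 1 with estradiol replicate 2 or 4 or vehicle replicate 3 left out, or with the replicate number as a block. HP, which encodes the haemoglobin-binding protein haptoglobin, rose 1.52-fold. ULK1, an autophagy kinase that helps clear free alpha chains in mice, rose 1.25-fold, and the haem exporter FLVCR1 and UBE2O, a ubiquitin ligase that marks free alpha chains, fell 1.25-fold and 1.21-fold. ULK1 was not called with any one of estradiol replicates 2 and 4 and vehicle replicate 3 left out (adjusted p = 0.0532 to 0.0645). The same was true of FLVCR1 for estradiol replicates 2 and 3 and vehicle replicates 3 and 4 (adjusted p = 0.0522 to 0.0655). With the mean of its 2 probe sets FLVCR1 changed by −0.16 (adjusted p = 0.205). Of the 5 other members of the globin family HBQ1 was the single one called, and the oxygen carriers of muscle and brain, MB and NGB, and the genes CYGB and ADGB were not.

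Across the 8 arrays, after each group's mean was removed, the probe sets of one shared signal did not always vary together. Pearson's r between pairs of the 6 alpha probe sets ran from 0.06 to 0.97 with a median of 0.59. Between the 3 gamma probe sets it ran from −0.75 to 0.01, where the residual spread was only 0.01 to 0.02. Among genes with 1 symbol and a mean above the median, those most alike in these residuals were CTXN1 (r = 0.97), VWA7 (0.96) and ECH1 (0.95) for the mean of HBE1. For the alpha mean they were BCAM (r = 0.98), HEY1 (0.97) and SPDEF (0.97), and for the gamma mean CIITA (r = 0.98), DDR2 (0.97) and CLN6 (0.97). For AHSP they were STIM1 (r = 0.99), TMEM132A (0.99) and BRF1 (0.98). These values describe 8 arrays and the best of many candidates, and the likeness to AHSP rests largely on estradiol replicate 1. The HBE1 mean takes both probe sets. Their within-group SDs with estradiol and vehicle were 0.09 and 0.12 for dim 217683_at, against 0.03 and 0.03 for 205919_at. The residuals of that mean therefore mostly follow the dim probe set, not the called one.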

How the data were processed

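RNA of 8 K562 samples was amplified with a whole-transcript kit, labelled with biotin and put on Affymetrix expression arrays. The table holds log2 values, and the authors ran RMA to obtain them, per the submitters' processing notes, with its version and chip definition not given in the sources used here. RMA can hide a change shared by most genes, and no detection calls were used. Of 54675 probe sets, 62 controls were left out. In the platform annotation 41097 list 1 symbol, 1801 several and 11777 none.

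Every remaining probe set was fitted with limma 3.58.1 in R 4.3.3 (lmFit and eBayes, no trend, no block), estradiol minus vehicle, two-sided, with Benjamini-Hochberg adjustment over all 54613. Errors of levels are SDs, errors of differences moderated SEs. A list gene stands by its single-symbol probe set with the highest mean. From each list the text names at most 4 genes, called and of largest change (or, with none called, of smallest p), plus GATA1, KLF1, BCL11A, ZBTB7A, MYB, NFE2, ALAS2 and HBQ1. Members, lists and tests were chosen with earlier results of these data known. The genes most alike to the mean of both HBE1 probe sets, the alpha mean, the gamma mean and AHSP were ranked by Pearson's r of residuals. The fit was tested on simulated data, with 50 randomly drawn probe sets changed at each size. It recovered 0% of log2 changes of 0.1, 6% of 0.25, 70% of 0.5 and 98% of 1. Of 91 calls, 4 were of unchanged probe sets. The changed probe sets came from all signal levels, and the data had 5669 calls, so the simulated threshold was stricter. The recovered shares therefore do not apply to the members. On the member probe sets the smallest differences that would have been called ran from 0.16 (HBG1/HBG2 204848_x_at) to 0.44 (AHSP). Figures were drawn with matplotlib 3.10.9. Alternatives covered scaling, filter, probe set summary, variance model, array weights, block, threshold and each array left out.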

Additional observations from a re-analysis of the deposited data

Results flagged for a closer look

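Within groups of 4 arrays, 6 of 78 examined had 1 array far from the other 3, and chance flags about 1 in 20 such groups. AHSP read 5.26 in estradiol replicate 1, against 5.78 to 5.84 in the other estradiol arrays, and 5.94 in vehicle replicate 2, against 5.80 to 5.82. The alpha probe set 211699_x_at read 13.45 in vehicle replicate 1, against 13.49 in the other vehicle arrays. The HBB probe set 217232_x_at read 8.31 in vehicle replicate 3, against 8.22 to 8.23. NFE2 read 10.94 in estradiol replicate 2, against 10.85 to 10.86, and HP read 5.24 in vehicle replicate 3, against 4.89 to 4.93.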

How the results depend on the processing

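Of the 19 members, 17 kept the sign of their difference in every alternative run. The dim HBE1 probe set turned to −0.01 without estradiol replicate 3 and to −0.040 without vehicle replicate 3 (−0.040 to 0.057 over all 8 arrays left out), and HBM to −0.03 without estradiol replicate 3 and −0.050 without vehicle replicate 1 (−0.050 to 0.11). ALAS2 turned to 0.0022 with median centring. HBBP1 turned to −0.018 with array weights, −0.008 without estradiol replicate 1, −0.007 without vehicle replicate 2 and −0.014 without vehicle replicate 4 (−0.014 to 0.066). The number of members called lower was 1 as reported, 0 with median centring, 75th percentile centring, an adjusted p below 0.01 or the replicate number as a block, 2 with quantile normalization, the filter on dim probe sets, 1 probe set per gene or array weights, and 11 with a variance trend and robust fit. It was 0 to 1 when an array was left out. Members whose groups did not overlap numbered 10 as reported, 7 with quantile normalization, 2 with each centring and 10 to 12 when an array was left out. They numbered 4 with 1 probe set per gene and 3 with the mean of the probe sets, where only 8 features stand for the members. Over all features, 1639 rose with 1 probe set per gene, and 1427 rose and 1702 fell with the mean of the probe sets, from 19777 features. At an adjusted p below 0.01, 1736 rose and 1529 fell. With an array left out 2110 to 3081 rose and 1895 to 3128 fell. With the replicate block 1676 fell, 3 list counts fell by over 1.5 times or to 0 among genes called lower (haem synthesis to 4, haem breakdown to 3, other globin family to 0), and 3 named values lost their call: HBE1 (adjusted p = 0.141), HBQ1 (0.0854) and ULK1 (0.0620). No same-numbered pair of arrays had residuals correlated above 0.1 (r from −0.24 to 0.10). The highest values were for estradiol replicate 1 with vehicle replicate 2 (r = 0.25) and estradiol replicate 2 with vehicle replicate 1 (r = 0.22). Such correlations cannot show whether any samples shared a culture or a day. The cause of the shifts in counts and calls was not tested.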
